A study of Canis lupus familiaris with 18 samples.

Results

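The genes described here are 8, measured in the right atrium (RA) and right ventricle (RV) of dogs. They are the chemokines CCL2, CXCL16, CXCL12 and CX3CL1, the receptors CX3CR1 and CCR2, the growth factor CSF1, and BPI, an antibacterial protein of myeloid granules. All but BPI take part in calling monocytes into tissue or in keeping macrophages there. Members were taken by gene symbol: every probe set whose only symbol in the platform annotation is one of the 8. This gave 10 probe sets for 7 genes, of 42924 probe sets for 15115 named genes on the array, and no probe set carried CX3CR1 as its only symbol. A probe set was tested if its mean log2 signal over all arrays was above 5.31, a limit that left out the dimmest 40%. By this limit 8 probe sets of 6 genes were tested, and CCR2 and the dimmest of the 3 BPI probe sets were not.

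Total RNA of 18 adult dog heart samples was hybridised to Affymetrix Canine_2 arrays, 3 arrays in each of 6 groups. The groups are control, early heart failure (HF) and late HF, in RA and in RV. Failure was produced by continuous rapid pacing of the ventricle with a pacemaker, lasting 2 weeks before early and 5 weeks before late HF tissue was taken, or 2 to 3 and 5 to 6 weeks by the protocol text. Small pieces of each chamber were frozen and give bulk RNA of all cell types. The animals were mongrels or beagles, with no genetic change named and no breed, age or identity given for a sample, and the labels do not say whether controls carried a pacemaker. The replicates are labelled biological, but nothing ties an array to an animal, so the p-values speak only of the scatter among these samples.

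Chemokines are small secreted or membrane-held proteins that steer leukocytes through receptors coupled to G proteins. CCL2 acts on CCR2 and draws classical monocytes out of the marrow and into inflamed tissue. CX3CL1, held on the membrane of endothelium and other cells, acts on CX3CR1, and CXCL16, also made as a membrane protein, acts on CXCR6. CXCL12 acts on CXCR4 and ACKR3 and retains leukocytes and progenitors. CSF1 keeps monocytes and macrophages alive through CSF1R. In the heart, resident macrophages are joined after injury by macrophages that arise from recruited monocytes.

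Values are log2 signals per probe set, so a difference of 1 is a doubling of signal. Differences are given with the standard error (SE) of a limma fit over all 18 arrays and a p-value adjusted by Benjamini-Hochberg over 25752 probe sets, and a difference passed if that value was under 0.05. Where a gene has several probe sets, the one of highest mean signal stands for it. Signals of different genes are not compared, since probe sets bind with different strength. The array medians lay between 5.65 and 5.75, and the 3' minus 5' signal of GAPDH, a sign of RNA quality, between 1.03 and 1.62, with RA early HF at 1.29 to 1.62 and RA controls at 1.15 to 1.61. Markers of heart muscle were bright on every array. One RA library stood apart in its chamber markers: RA late 3 had 14.17 for MYL2, the ventricular light chain, where RV controls averaged 14.15 (SD 0.02) and RA controls 7.31 (SD 1.81). MYL2 averaged 10.77 (SD 1.18) in RA early HF and 11.92 (SD 1.96) in RA late HF, this library included. Of its atrial markers, MYL7 was 11.65, near the RV controls at 11.99 (SD 0.31). NR2F1 (7.01) and NR2F2 (6.01) were also near RV controls at 6.93 and 6.05, with RA controls at 7.70 and 7.29. MYL4 was 11.65, between RV controls at 8.79 (SD 1.39) and RA controls at 14.01 (SD 0.03). GJA5 was 8.74, near the RA controls at 9.04 (SD 0.15). Its ventricular markers MYL3 (13.89) and IRX5 (8.10) were near RV controls at 14.06 and 7.94, with RA controls at 7.82 and 5.16. IRX4 and HAND1 were dim and differed little between the control chambers. RV late HF also departed from its controls: MYL2 ran from 12.76 to 14.35, against 14.13 to 14.17 in RV controls. MYL3, another ventricular marker, ran from 12.35 to 13.89, against 14.02 to 14.15. The summed linear signal of 5 atrial markers was 8989 to 10063 in RV late HF and 4520 to 5657 in RV controls. The part of these chamber markers in the RV late values of the members was not tested. Results are given with RA late 3 and, where the call of a member differs, without it.

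In early HF, CCL2 and BPI rose in the atrium, 4.82-fold and 5.84-fold, and no member fell. These were 2 of the 6 genes tested, against 0.307% of all probe sets called higher and 0.812% called in either direction. At an unadjusted p under 0.05 there were 3 of 6, beside 13.9% of probe sets. The members were chosen with earlier results of these data known, so these shares do not test the set. CXCL16 was 1.83-fold and missed the threshold with all arrays. CXCL12, CX3CL1 and CSF1 stayed within 0.10 of their control means on the log2 scale. The median difference of the 6 genes was 0.46, beside -0.02 over all probe sets tested.

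CCL2 had log2 signals of 6.59, 6.51 and 6.66 in the RA controls and 8.81, 8.23 and 9.53 in RA early HF. The groups did not overlap, as was true in this direction for 8.7% of probe sets, and the lowest early HF array lay well above the highest control. The difference was 2.27 (SE 0.44, adjusted p = 0.0303), with an unadjusted 95% interval from 1.33 to 3.21. The call ended when any one RA control, RA early 1 or RA early 3 was left out, with differences of 1.93 to 2.31 and adjusted p of 0.0513 to 0.128. In RA late HF the signals were 9.35, 7.82 and 6.73, the last from the library with ventricular markers. The group thus spread from just above the highest control (non-overlap of this kind held for 6.16% of probe sets) to near the top of early HF. With all 3 arrays the late difference was 1.38 (SE 0.44, adjusted p = 0.259). Without RA late 3 it was 2.00 (SE 0.36, adjusted p = 0.0177), from 2 late arrays.

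The ventricle showed smaller values of CCL2. RV controls had 6.62, 6.65 and 6.60, the same level as RA controls. RV early HF had 7.24, 6.76 and 6.89, and RV late HF 7.77, 7.20 and 7.86. Every paced RV array was above every RV control, as was so for 7.35% of probe sets in the early and 9.04% in the late comparison, yet neither difference passed. The early difference was 0.34 (SE 0.44, adjusted p = 0.923) and the late 0.99 (SE 0.44, adjusted p = 0.529). The group means of CCL2 ran, from the top, RA early HF at 8.86 (SD 0.65), RA late HF at 7.97 (SD 1.32), RV late HF at 7.61 (SD 0.36) and RV early HF at 6.96 (SD 0.25). The controls came last, RV at 6.62 (SD 0.03) and RA at 6.59 (SD 0.08). RA early and RA late HF, and RV late and RV early HF, did not differ past the threshold (adjusted p = 0.653 and 0.951). The 2 control groups differed by -0.04 (SE 0.44), RA against RV. The CCL2 probe set is of the kind whose name marks probes shared by more than 1 transcript, and no other probe set of the gene was on the array to set beside it.

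BPI, which binds bacterial endotoxin and is best known from neutrophil granules, followed the same groups. On its brightest probe set RA controls had 6.33, 6.54 and 6.67 and RA early HF 9.95, 8.23 and 9.0. All early HF arrays were at least 1 unit above all controls, and the difference was 2.55 (SE 0.46, adjusted p = 0.0223; unadjusted 95% interval 1.58 to 3.51). It did not pass when any one RA control or RA early 3 was left out, at 2.46 to 2.62 with adjusted p of 0.0566 to 0.0984. RA late HF had 8.95, 8.20 and 6.57, of which the last fell among the controls. The late difference was 1.39 (SE 0.46, adjusted p = 0.27) with all arrays and 2.06 (SE 0.36, adjusted p = 0.0151) without RA late 3.

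In RV, BPI was 5.95, 6.57 and 6.02 in controls, 7.11, 6.66 and 6.38 in early HF and 7.45, 7.42 and 7.55 in late HF. The late arrays lay close together and above all early HF arrays, as for 6.01% of probe sets, and above all RV controls. The difference from control, 1.29 (SE 0.46, adjusted p = 0.453), did not pass in the fit over all groups. A fit of these 2 groups alone gave an adjusted p of 0.01 for BPI and 0.0231 for CCL2, beside 0.998% of all probe sets called in that fit. A second BPI probe set moved the same way: RA controls averaged 5.32 (SD 0.18) on it, early HF 6.94 (SD 0.74) and late HF 6.21 (SD 0.70). Its early difference was 1.62 (SE 0.31, adjusted p = 0.0277), smaller than on the brighter one. The controls on it lay at the signal limit of 5.31, with 5.13 to 5.48 in RA and 5.22 to 5.31 in RV. As for CCL2, its name marks probes shared by more than 1 transcript. The third BPI probe set, below the signal limit, stayed between 4.33 and 4.78 on all arrays.

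CXCL16, a chemokine and scavenger receptor for oxidised lipoprotein, had 5.46, 5.56 and 5.33 in RA controls and 6.57, 6.05 and 6.35 in RA early HF. The groups did not overlap, and the difference was 0.87 (SE 0.21, adjusted p = 0.0593). It passed without RA late 3, which enters this comparison only through the shared spread (adjusted p = 0.00757). RA late HF had 6.47, 6.06 and 5.40, with RA late 3 again at the control level. The late difference was 0.53 (SE 0.21, adjusted p = 0.352) with all arrays and 0.81 (SE 0.17, adjusted p = 0.0306) without that library. RV controls had 5.43, 5.43 and 5.58, RV early HF 5.46, 5.61 and 5.38, and RV late HF 6.16, 5.53 and 5.77. In early HF the ventricular groups overlapped fully (difference 0.00, SE 0.21), and in late HF the difference of 0.34 (SE 0.21, adjusted p = 0.627) did not pass. The control levels of CXCL16 lay near the signal limit.

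**Figure D1:**
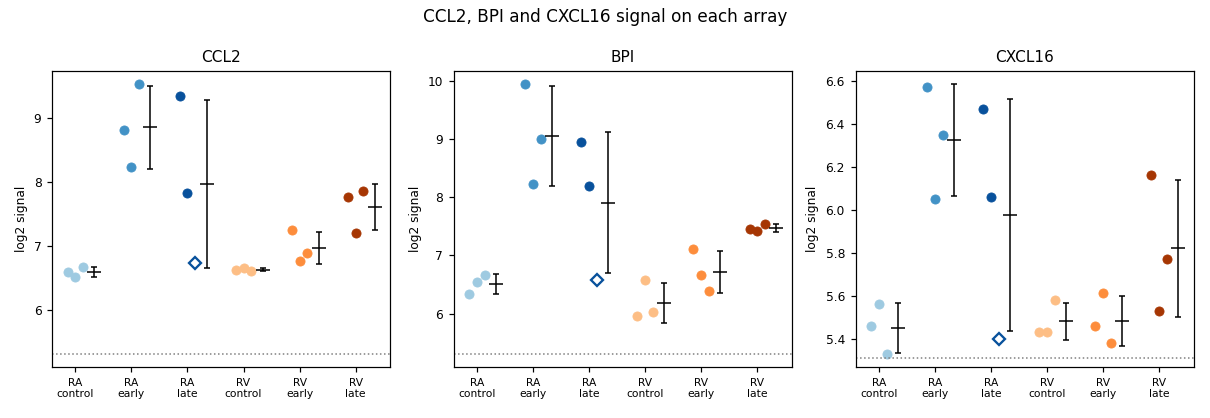
Log2 signal of CCL2, BPI (brightest probe set) and CXCL16 on each of the 18 arrays by group (points), with group mean and SD (black) and the signal limit of 5.31 (dotted); the open diamond is the library labelled RA late 3. All RA early HF arrays lie above all RA controls for the 3 genes, and RA late 3 lies near the controls, at 6.73, 6.57 and 5.40.

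Without RA late 3 the counts were 3 of 6 genes higher in RA early HF, beside 1.63% of all probe sets, and 3 of 6 higher in RA late HF, beside 1.21%. The genes were CCL2, BPI and CXCL16 in both. With all arrays, 0 of 6 passed in RA late HF by limma, where 0.0699% of all probe sets did; 3 members had an unadjusted p under 0.05, beside 11.7% of probe sets. In RV early HF 0 of 6 passed and 0 had an unadjusted p under 0.05, beside 0.105% and 8.48% of probe sets. In RV late HF 0 of 6 passed and 3 had an unadjusted p under 0.05 (CCL2, BPI and CXCL12), beside 0% and 9.21% of probe sets. Without RA late 3 the latter count was 4, beside 12.1% of probe sets, and 0 of 6 passed. The early and late comparisons of a chamber share their 3 control arrays.

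Late and early HF were also compared directly within each chamber. In RA, CCL2 differed by -0.89 (SE 0.44, adjusted p = 0.653), BPI by -1.15 (SE 0.46, adjusted p = 0.545) and CXCL16 by -0.35 (SE 0.21, adjusted p = 0.729). Leaving out RA late 3 gave -0.27, -0.49 and -0.06. Leaving out RA late 1 instead gave -1.58 for CCL2 (adjusted p = 0.0482), which passed, beside 0.342% of all probe sets. In RV the same genes were higher late than early by 0.65, 0.76 and 0.34, and none of the differences passed by limma. Of the 6 genes, 1 had an unadjusted p under 0.05 in RA and 0 in RV, beside 8.03% and 5.56% of all probe sets, and 0% of probe sets passed in either. Without RA late 3 the RV difference of BPI, 0.76, had SE 0.32 and adjusted p = 0.637 by limma, and 0 of 6 genes passed in either chamber.

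The difference between the chambers in the effect of early HF was 1.93 for CCL2 (SE 0.63, unadjusted 95% interval 0.61 to 3.25, adjusted p = 0.702). It was 2.01 for BPI (SE 0.65, interval 0.65 to 3.37, adjusted p = 0.702) and 0.87 for CXCL16 (SE 0.30, interval 0.25 to 1.49, adjusted p = 0.74). None passed by limma, where 0.00388% of all probe sets did. These 3 had an unadjusted p under 0.05, as had 5.45% of probe sets. RA late 3 enters this contrast only through the shared spread. With it left out, CCL2 had SE 0.46 (adjusted p = 0.219) and BPI SE 0.45 (adjusted p = 0.204), and 0 of 6 members passed. A larger response in RA than in RV is therefore not established for any member by the test of the difference. In late HF the chamber differences were 0.39, 0.10 and 0.19, with 0 of 6 members passing by limma or at an unadjusted p under 0.05, beside 0.00777% and 7.87% of probe sets. RA late 3 enters this contrast, and with it left out the values were 1.01 (SE 0.49, adjusted p = 0.645) for CCL2, 0.77 (SE 0.48, adjusted p = 0.705) for BPI and 0.47 (SE 0.23, adjusted p = 0.645) for CXCL16.

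**Figure D2:**
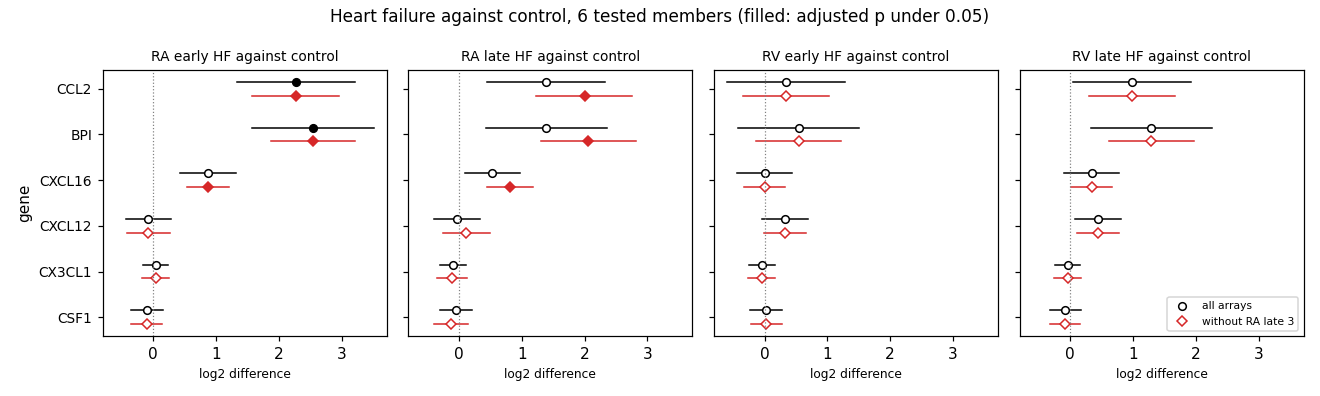
Log2 difference of HF against control (x axis) for the 6 tested members (y axis) in 4 comparisons, with unadjusted 95% intervals (lines), for the fit of all arrays (circles) and without RA late 3 (diamonds); filled symbols have an adjusted p under 0.05. CCL2 and BPI are filled in RA early HF in both fits, at 2.27 and 2.55, and no member is filled in RV.

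CXCL12, made by stromal and endothelial cells, was the member whose control values differed most between the chambers. On the brighter of its 2 probe sets RA controls had 9.24, 9.65 and 9.82 and RV controls 8.81, 8.96 and 9.05, and the groups did not overlap, as for 13% of probe sets in this direction. The difference was 0.63 (SE 0.17, adjusted p = 0.0601), so 0 of 6 members passed in controls by limma, beside 2.9% of all probe sets, and CXCL12 alone had an unadjusted p under 0.05, beside 16.3%. RA and RV arrays of the same number deviated together in controls and in early HF. With those pairs as a block, a setting chosen after seeing the data, CXCL12 passed at the same difference (SE 0.16, adjusted p = 0.0284), beside 4.65% of all probe sets. The planned block, over the chamber pairs of all conditions, gave it an adjusted p of 0.0449. CXCL12 also passed without RA late 3 (adjusted p = 0.0262), where 5.66% of all probe sets were called. The other probe set had 6.40 (SD 0.01) in RA controls and 6.08 (SD 0.14) in RV controls, a difference of 0.33 (SE 0.19, adjusted p = 0.429).

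In failure CXCL12 did not pass in either chamber. On the brighter probe set the RA groups averaged 9.57 (SD 0.30) in controls, 9.49 (SD 0.25) early and 9.54 (SD 0.25) late, and the RV groups 8.94 (SD 0.12), 9.26 (SD 0.18) and 9.38 (SD 0.18). The RV differences were 0.32 (SE 0.17, adjusted p = 0.665) early and 0.44 (SE 0.17, adjusted p = 0.475) late. Every paced RV array was above every RV control on it, as for 7.35% of probe sets early and 9.04% late. The dimmer probe set had a larger early difference in RV, 0.72 (SE 0.19, adjusted p = 0.158), from 5.99, 6.24 and 6.00 in controls to 6.60, 6.88 and 6.90. In RV late HF it had 6.94, 6.84 and 6.22, the last just below the highest RV control. In RA that probe set differed by 0.19 early and 0.31 late, against -0.08 and -0.03 on the brighter one. The probe sets thus had opposite signs in RA, where neither passed.

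CX3CL1, fractalkine, was level across the study: its signals ran from 5.83 to 6.29 on all 18 arrays. The group means lay between 5.97 and 6.09, and the differences from control were 0.04 (SE 0.10) and -0.09 (SE 0.10) in RA, early and late, and -0.04 (SE 0.10) at both stages in RV. In RV early HF all arrays (5.97 to 6.02) lay just under all controls (6.04 to 6.05), as for 8.46% of probe sets. The unadjusted 95% interval of the RA early difference was -0.17 to 0.24. It covers the signal of this probe set, and so near the limit a change in the transcript could be missed. CSF1, the macrophage growth factor, ran from 5.52 to 5.99. Its differences from control were -0.10 and -0.05 in RA and 0.02 and -0.08 in RV, each with SE 0.12, and the RA early interval was -0.35 to 0.15. Both genes lay within 1 unit of the signal limit on every array.

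CCR2, the receptor of CCL2, ran from 3.20 to 3.62, far below the limit of 5.31, on every array. Its group means were 3.52 (SD 0.09), 3.42 (SD 0.06) and 3.37 (SD 0.11) in RA control, early and late, and 3.49 (SD 0.08), 3.37 (SD 0.16) and 3.44 (SD 0.11) in RV. No change was detectable at this signal, with -0.10 (SE 0.08, adjusted p = 0.773) in RA early HF in a fit without the limit.

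**Figure D3:**
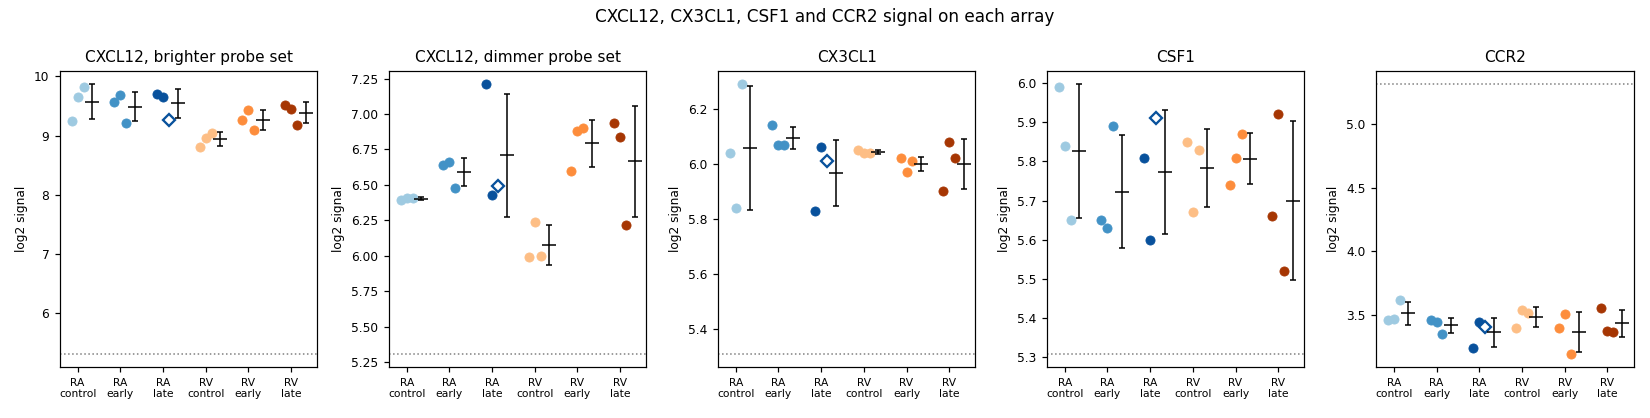
Log2 signal of both CXCL12 probe sets, CX3CL1, CSF1 and CCR2 on each array by group (points), with group mean and SD (black) and the signal limit of 5.31 (dotted); the open diamond is RA late 3 and each panel has its own scale. CX3CL1 stays between 5.83 and 6.29 and CCR2 between 3.20 and 3.62 on all arrays, while CXCL12 on the brighter probe set is higher in RA than in RV controls.

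CCL2, BPI and CXCL16 were high on the same arrays. Over the 18 arrays Pearson's r of log2 signal was 0.93 between CCL2 and BPI, 0.92 between CCL2 and CXCL16 and 0.92 between BPI and CXCL16. These are descriptions over arrays that share the group differences given above, with no p. The top 4 arrays for CCL2 (RA early 3, RA late 1, RA early 1 and RA early 2) had BPI of 9.0, 8.95, 9.95 and 8.23, the highest 4 values of BPI. CX3CL1 and CSF1 had r of -0.09 and -0.25 with CCL2.

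**Figure D4:**
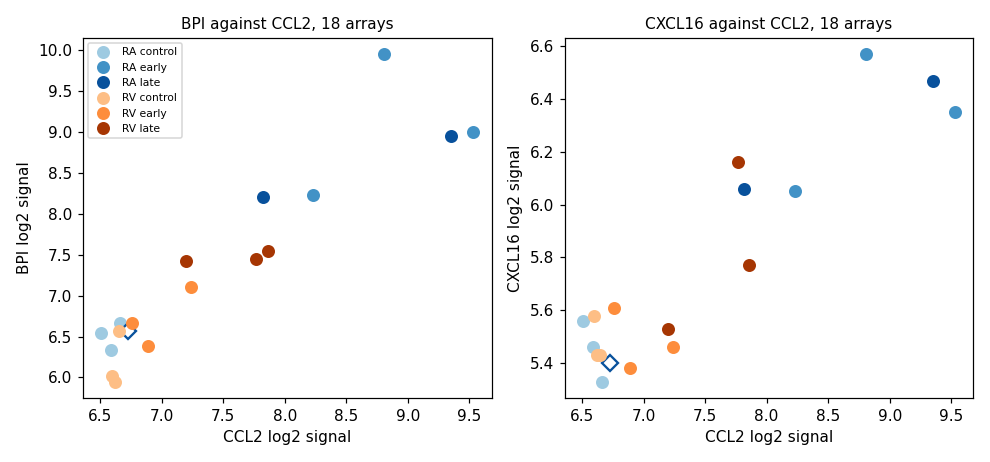
BPI (left) and CXCL16 (right) against CCL2 in log2 signal, 1 point per array, coloured by group; the open diamond is RA late 3. The RA early HF arrays and RA late 1 have the highest CCL2 (8.23 to 9.53). In CCL2, RA late 2 (7.82) lies among the RV late HF arrays (7.20 to 7.86), but its BPI (8.20) is above theirs (7.42 to 7.55). The controls and RA late 3 have CCL2 of 6.73 or lower. Pearson's r is 0.93 and 0.92 over the 18 arrays.

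For each member the 3 genes with the most similar signal over the 18 arrays were picked from 10988 named genes. For CCL2 they were THBS4, a matricellular thrombospondin (r = 0.980), TIMP1, an inhibitor of matrix proteases (r = 0.947), and CTSC, a lysosomal protease that activates granule proteases (r = 0.944). CTSC also led for BPI (r = 0.980), ahead of CTSS, a lysosomal protease of antigen-presenting cells (r = 0.974), and the chemokine CCL23 (r = 0.966). For CXCL16 they were CD86, a costimulatory protein of myeloid cells (r = 0.960), THBS4 (r = 0.928) and CTSC (r = 0.928). CXCL12 was closest to ribosomal protein genes, RPL8 (r = 0.865), RPL10A (r = 0.864) and RPL10 (r = 0.856). CX3CL1 was closest to FREM1 (r = 0.838), TAS2R40 (r = 0.819) and NIBAN3 (r = 0.796), and CSF1 to AARS2 (r = 0.734), FBXL15 (r = 0.725) and PPA2 (r = 0.720). The 3 genes of CCL2 and of BPI were the same over 17 arrays, without RA late 3.

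The rest of the chemokine system was read from lists of genes. Of 16 other chemokine ligands tested, 0 passed in RA early HF by limma and 2 had an unadjusted p under 0.05, with a median difference of 0.04. CCL23, a ligand of CCR1 that attracts monocytes, was at 1.90 (SE 0.47, adjusted p = 0.0663), from a control mean of 8.10 (SD 0.14), and CCL5 at 0.38 (SE 0.12, adjusted p = 0.138). CCL21 (0.34) and CCL14 (0.25) were next by p. With that library left out, CCL23 rose (adjusted p = 0.0088), as 1 of the 16. In RV late HF CCL23 was at 1.38 (SE 0.47, adjusted p = 0.432).

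Among 10 other chemokine receptors tested, 0 passed in RA early HF and 0 had an unadjusted p under 0.05, and their differences ran from -0.28 to 0.13. CCR1, a receptor of CCL5 and CCL23, was at -0.11 (SE 0.11), and ACKR3, the second receptor of CXCL12, at -0.23 (SE 0.19). CXCR6, the receptor of CXCL16, averaged 3.70, below the limit. Of 9 genes of the colony stimulating factor axis, 0 passed and 1 had an unadjusted p under 0.05, KITLG, the ligand of KIT (0.61, SE 0.22, adjusted p = 0.194). CSF1R, the receptor of CSF1, was at -0.02 (SE 0.11) and IL34, its other ligand, at 0.18 (SE 0.10). ADAM10, which sheds CXCL16 and CX3CL1 from the membrane, was at 0.06 (SE 0.20), and 0 of 5 genes of shedding and cleavage passed, with 0 at an unadjusted p under 0.05.

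Upstream genes gave 0 of 13 cytokine and NF-kappaB genes past the threshold in RA early HF and 1 at an unadjusted p under 0.05, STAT3, a transcription factor of cytokine signalling (0.62, SE 0.19, adjusted p = 0.123). IL1A, IL1B, IL6, IFNG and 6 others of that list were below the signal limit. Of 7 endotoxin recognition genes 0 passed and 2 had an unadjusted p under 0.05: CD14, the endotoxin co-receptor (0.36, SE 0.11, adjusted p = 0.111), and LY96, its partner at TLR4 (1.54, SE 0.59, adjusted p = 0.234), which lay below the limit in RA controls at 4.81. Of 13 leukocyte adhesion genes 0 passed and 5 had an unadjusted p under 0.05, led by PECAM1 (0.76, SE 0.23, adjusted p = 0.128), ITGB1 (0.67, SE 0.21) and VCAM1 (0.82, SE 0.35). Over the 7 lists, 11 of 73 genes had an unadjusted p under 0.05 in RA early HF, near the share of 13.9% of all probe sets. Without RA late 3, STAT3 (adjusted p = 0.0427) and PECAM1 (adjusted p = 0.0313) passed, each alone in its list, and 3.22% of all probe sets were called. In RA late HF, RV early HF and RV late HF, 0 of the 73 genes of these 7 lists passed by limma with all arrays, and 6, 4 and 10 had an unadjusted p under 0.05, beside 11.7%, 8.48% and 9.21% of all probe sets. These counts were 16, 6 and 14 with RA late 3 left out, beside 19.1%, 10.4% and 12.1%. Without RA late 3, LY96 was the 1 that passed among these comparisons, in RA late HF (2.47, adjusted p = 0.0199).

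Markers of other cell types were summed on each array. A sum on the linear scale mostly follows its brightest genes. The summed signal of 13 macrophage markers, on the linear scale, was 2428 to 2613 in RA controls, 4068 to 7818 in RA early HF and 2645 to 6983 in RA late HF, with 2263 to 2573, 2159 to 3026 and 3467 to 3826 in RV. MSR1, LYVE1 and MARCO were below the limit. In RA early HF 0 of 13 passed and 10 had an unadjusted p under 0.05, beside 13.9% of all probe sets. Their median difference was 0.71, beside -0.02 over all probe sets. The 13.9% also stands beside the unadjusted counts of the other marker lists in RA early HF. CTSS was at 2.12 (SE 0.48, adjusted p = 0.0509). Without RA late 3, CTSS, TYROBP, C1QC, MRC1 and C1QA rose, beside 1.63% of all probe sets called higher. CSF1R (means 6.44 in RA controls and 6.42 in RA early HF) and ADGRE1 (5.36 and 5.29) did not rise. For 5 monocyte markers the sum was 748 to 931 in RA controls and 1451 to 2382 in RA early HF, with 0 passing and 3 at an unadjusted p under 0.05. LYZ, the brightest of them, was at 1.5 (SE 0.38, adjusted p = 0.0717, or 0.00587 without RA late 3). Its mean went from 9.11 in RA controls to 10.60 in RA early HF, where CSF3R had 6.21 and 6.20. ITGAM and S100A9 were below the limit. In bulk tissue, more cells of a type and more RNA per cell cannot be told apart, and the part of these markers in the values of CCL2, BPI and CXCL16 was not tested.

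Neutrophil markers, of interest because BPI is a granule protein, were mostly dim. The sum of 4 of them was 269 to 299 in RA controls and 247 to 309 in RA early HF, with 0 passing and 0 at an unadjusted p under 0.05, and MPO, LTF, MMP8, LCN2, PADI4 and OLFM4 were below the limit. T and NK cell, B cell and mast cell markers gave 0 passing of 5, 1 and 5, with 1, 0 and 0 at an unadjusted p under 0.05. The sum of 9 endothelial markers was 2184 to 2508 in RA controls and 2987 to 3950 in RA early HF, with 0 passing and 3 at an unadjusted p under 0.05. EMCN (0.80, adjusted p = 0.0185) and PECAM1 rose without RA late 3. Others of the list were lower in RA early HF: TEK was at -0.25 (SE 0.13, adjusted p = 0.42 with all arrays). KDR averaged 9.15 in RA controls and 9.04 in RA early HF, and CDH5 6.65 and 6.58. Fibroblast markers had sums of 11159 to 12510 in RA controls and 18293 to 34730 in RA early HF, where PDPN rose (1.43, SE 0.29, adjusted p = 0.0328) as 1 of 8. In the fit without RA late 3, 6 of 8 rose there, beside 1.63% of all probe sets: LUM, PDPN, COL1A2, DPT, COL3A1 and COL1A1. Heart muscle markers had 76730 to 81006 and 57951 to 69758, where TNNT2 fell as 1 of 8 (-0.42, SE 0.09, adjusted p = 0.0389), and RYR2 fell as well without RA late 3 (-0.83, adjusted p = 0.0272). The 5 atrial markers had 34032 to 34434 and 30626 to 32768, with 0 passing and 2 at an unadjusted p under 0.05. The 5 ventricular markers had 391 to 1029 in RA controls and 1547 to 6259 in RA early HF, and MYL2 was at 3.46 (SE 0.87, adjusted p = 0.0699). MYL2 (adjusted p = 0.0126) and MYL3 (1.89, adjusted p = 0.0171) rose without RA late 3. The part of fibroblast, endothelial, muscle and ventricular marker levels in the members' values was not tested.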

How the data were processed

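The authors deposited log2 signal per probe set for 18 arrays; the log2 scale was read from the values, and per the labels MAS5 was the tool, its version and scaling not stated. The arrays have nearly the same distribution, and the step that made them so is not given in the sources used here. Of 43035 probe sets, 111 controls and the 40% of the rest with the lowest mean were left out, leaving 25752. Symbols came from the platform annotation (29254 probe sets with 1 symbol, 439 with several, 13231 with none). No coordinates or sequences are given. The number of arrays limits the precision.

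A model with 1 mean for each of 6 groups was fitted with limma 3.58.1 in R 4.3.3 (two-sided, trended prior, 12 residual degrees of freedom) and tested on simulated data. Figures used Python 3.11.15 and matplotlib 3.10.9. At least 97.5% of values differed between any pair of arrays. Deviations from group means of RA and RV arrays with the same number were correlated. The values were 0.356, 0.237 and 0.421 in controls, 0.172, 0.26 and 0.151 in early HF and 0.0525, -0.421 and 0.154 in late HF. After these were seen, an alternative took numbers to pair chambers in controls and early HF only. That pairing is not established: the 0.154 of late HF lay among the early values. Arrays of different number were not correlated, and nothing ties a number to an animal. Alternatives were quantile normalization, other filters, no trend, only the compared groups, array weights, mean over probe sets, no cross-hybridising probe sets, replicate blocks and leaving out each array. The members and lists were chosen with earlier results of these data known. All members were named, and, from each list, up to 4 genes of smallest unadjusted p in the comparison described, and the 3 genes of highest Pearson correlation with each member; receptors and partners of the members (CCR1, ACKR3, CXCR6, CSF1R, IL34, ADAM10) and genes that passed without RA late 3 were named after their values were seen.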

Additional observations from a re-analysis of the deposited data

How the results depend on the processing

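Over 29 alternatives and 9 comparisons, 1525 of 1557 member differences kept their side of the threshold, 9 were lost, 23 were gained and 0 reversed while passing; 57 differences that never passed changed sign, and no direction is read from those. With one array left out, the members called in RA early HF, 2 with all arrays, ranged from 0 to 3: CCL2 did not pass without RA control 1 (adjusted p = 0.116), RA control 2 (0.116), RA control 3 (0.074), RA early 1 (0.0513) or RA early 3 (0.128), and BPI without RA control 1 (0.0984), RA control 2 (0.0915), RA control 3 (0.0566) or RA early 3 (0.0761), with differences of 1.93 to 2.31 and 2.46 to 2.62. Leaving out one array gave 0 to 3 in RA late HF (3 without RA late 3), 0 to 1 in RA late against early HF (CCL2 without RA late 1, -1.58, adjusted p = 0.0482) and 0 to 1 for RA against RV in controls. CXCL16 in RA early HF passed without RA late 1 or 3, and with quantile normalization, array weights, only the compared groups or the number as a fixed term. Without cross-hybridising probe sets, 1 member remained in RA early HF, since CCL2 has no other probe set. Array weights, whose fit stopped short of its convergence tolerance, gave 3 members in RA late HF. They gave 1 in RA late against early HF (CCL2, -0.95) and 1 (CXCL12) in controls. In these comparisons array weights called 2578, 2479 and 2605 of all 25752 probe sets. Only the compared groups gave 2 in RV late HF and 1 (CXCL12) in controls, beside 257 and 2162 of all probe sets. The replicate block over all chamber pairs, and over pairs of controls and early HF only (chosen after seeing the data), each gave 1 (CXCL12) in controls. The blocks, including the number as a fixed term, changed no other call of a member but CXCL16 in RA early HF (0.0414 with the number as a fixed term).

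Counts of all probe sets moved more: 209 in RA early HF (20 to 886 with one array left out; 420 after quantile normalization, 724 with only the compared groups, 1279 with array weights, 135 with the mean of probe sets, 330 with the number as a fixed term), 18 in RA late HF (1 to 425; 0 to 2578 under the other settings), 27 in RV early HF (0 to 306; 11 to 384), 0 in RV late HF (0 to 34; 0 to 257), 748 between control chambers (251 to 1458; 510 to 2605) and 0 in RA late against early HF (0 to 88; 0 to 2479). Signal near the limit of 5.31 bounds what can be seen of CCR2, CSF1, CX3CL1, CXCL16 and the second BPI probe set.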
